A study of Arabidopsis thaliana with 8 samples.

Results

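Transcript levels of 4 nuclear genes for enzymes of chloroplast carbon metabolism were compared between the tic40 mutant and wild-type (WT) Arabidopsis thaliana. They were PRK (AT1G32060, phosphoribulokinase), SBPASE (AT3G55800, sedoheptulose-bisphosphatase), PPDK (AT4G15530, pyruvate orthophosphate dikinase) and AT5G58330, which encodes the NADP-dependent malate dehydrogenase. The 4 genes were chosen by name, and a probe was used only where the platform annotation gave it exactly 1 gene. Each gene had 1 such probe. The table holds 3439 probes in all, of which 692 name exactly 1 gene, and the enzymes are 4 of the 691 genes so named.

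PRK and SBPASE belong to the Calvin-Benson cycle, which fixes carbon dioxide in the chloroplast stroma. SBPASE removes a phosphate from sedoheptulose bisphosphate in the part of the cycle that regenerates the acceptor sugar, and PRK makes that acceptor, ribulose bisphosphate. NADP-malate dehydrogenase reduces oxaloacetate to malate with NADPH, and export of that malate carries surplus reducing power out of the chloroplast (the malate valve). PRK, SBPASE and NADP-malate dehydrogenase are all switched on in the light through thioredoxins. PPDK converts pyruvate to phosphoenolpyruvate. It is best known from the carbon-concentrating pathway of maize and related plants, and in Arabidopsis it has been studied in seedlings and ageing leaves. All 4 proteins are made in the cytosol, and their chloroplast forms enter the organelle through the import machinery of the envelope, to which TIC40 belongs.

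The tic40 group held 4 samples of the mutant in ecotype Columbia 0, and the WT group held 4 samples of the same ecotype. The mutant is described by the submitters as defective in moving proteins through the inner envelope membrane of the chloroplast. Total RNA of each sample was measured on 1 single-colour array. Neither the allele nor the tissue, plant age and growth conditions are stated in the labels. Nor is it stated that the samples are separate plants, so the p-values cover the spread among these 8 RNA samples and that spread may be technical. TIC40 itself is named by 0 probes of the annotation, and the genotype labels were therefore not checked against the mutated gene. Of the green-tissue markers (the small subunits and the activase of Rubisco) and of the 9 listed markers of seed, root, senescence and stress, 0 had a single-gene probe, so the tissue was not checked either.

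Levels are given as normalised intensities, the deposited relative intensities after quantile normalization between arrays, and have no absolute unit. A level is compared between arrays for the same probe only, since probes differ in how strongly they bind. Differences are tic40 minus WT on the log2 scale, fitted with limma, and a probe was called at a Benjamini-Hochberg adjusted p under 0.05 over all 3318 probes tested. The 4 WT arrays were not alike. WT samples 3 and 4 correlated with WT samples 1 and 2 at 0.707 to 0.722 across probes, although each of these pairs correlated at over 0.94 within itself and the tic40 arrays at 0.934 to 0.975 among themselves. The median absolute log2 difference between samples 3 and 4 and samples 1 and 2 was 0.24 in tic40 and 0.68 in WT. Differences were therefore also computed with either WT pair left out and within samples 1 and 2 or samples 3 and 4 alone.

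None of the 4 enzyme genes passed the test over all 8 arrays. NADP-malate dehydrogenase was 0.707-fold of WT in tic40 and lay below WT on every array. PRK averaged 0.537-fold of WT, with 1 WT array inside the tic40 range. SBPASE lay slightly above WT on every tic40 array, at 1.16-fold. PPDK was in between, higher than WT samples 1 and 2 and lower than WT samples 3 and 4. In such bulk RNA, fewer cells that express a gene and less of its RNA per cell cannot be told apart. limma called 0 of the 4 genes, against 7.69% of all tested probes (255 probes). Without tic40 sample 1 the number of called probes was 43, and it was 45, 54 and 44 without tic40 sample 2, 3 or 4. It was 127 when WT sample 3 was left out and 122 when WT sample 4 was. With the numbers entered as a replicate block, limma called 5 probes (0.151%) and again 0 of the 4 genes. An unadjusted p under 0.05 was found for 2 of the 4 genes (PRK and AT5G58330), against 24.2% of all probes. The groups did not overlap for 2 of the 4 genes (SBPASE and AT5G58330), against 21.8% of all probes, and a count over so few genes does not set them apart.

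**Figure D1:**
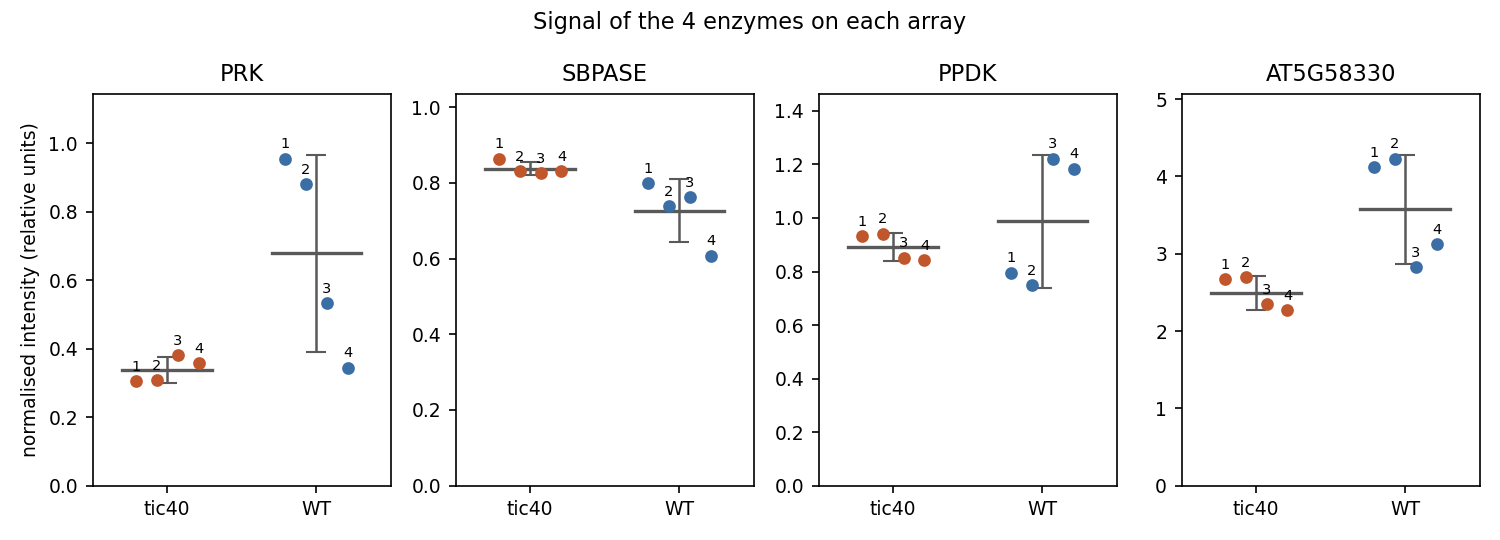
Normalised intensity (relative units, axis from 0) of the 4 enzyme genes on each array, tic40 left and WT right; points are arrays with their sample numbers, lines are means and bars are SD (n = 4 per genotype). The tic40 arrays lie close together for each gene, and the 4 WT arrays of AT5G58330 all lie above 2.82 while the tic40 arrays lie between 2.27 and 2.69.

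PRK catalyses the last step before carbon dioxide is fixed. Its normalised intensity was 0.305, 0.308, 0.381 and 0.358 in tic40 samples 1 to 4, against 0.954, 0.881, 0.533 and 0.344 in WT samples 1 to 4. The tic40 values were narrow (0.338 ± 0.0375, SD, n = 4) and the WT values were wide (0.678 ± 0.289, SD, n = 4), and WT sample 4 lay among the tic40 arrays. The log2 difference was -0.90 with an SE of 0.32 and a 95% interval of -1.64 to -0.15, not adjusted for the number of probes (limma adjusted p = 0.137). An exact two-sided permutation test of the 4 against 4 arrays gave p = 0.0857, and exact permutation within the 4 like-numbered pairs gave p = 0.25. Over all tested probes, 6.90% had a lower difference. As deposited the log2 difference was -0.50 (limma adjusted p = 0.206), or -0.83 relative to the median of all probes, and with median centring it was -0.85 (adjusted p = 0.193).

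The size of the PRK difference depended on which WT arrays were used. Compared by sample number, the log2 difference was -1.65, -1.51, -0.48 and 0.06 for numbers 1 to 4. Samples 1 and 2 alone gave -1.58 (limma adjusted p = 0.0107, in a fit that called 30.5% of all probes), and samples 3 and 4 alone gave -0.21 (adjusted p = 0.494). Without WT samples 3 and 4 the difference was -1.45 (adjusted p = 0.00202, where 29.7% of probes were called), and without WT samples 1 and 2 it was -0.35 (adjusted p = 0.192). Leaving out WT sample 4 alone moved PRK past the threshold, at -1.18 (limma adjusted p = 0.0454, where 3.68% of probes were called). Fits of 2 arrays against 2 measure only the spread within such pairs. Fits with a WT pair left out take the WT spread from the other pair alone and were chosen after seeing the data. These limits hold for the same fits of every gene described here.

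SBPASE works in the regeneration phase of the same cycle. Its normalised intensity was 0.863, 0.830, 0.825 and 0.831 in tic40 samples 1 to 4, against 0.799, 0.738, 0.762 and 0.607 in WT samples 1 to 4. Every tic40 array lay above every WT array, as for 8.35% of all probes, but the gap between the lowest tic40 and the highest WT array was small beside the WT spread. The means were 0.838 ± 0.0174 in tic40 and 0.726 ± 0.0835 in WT (SD, n = 4 each). The log2 difference was 0.21 with a 95% interval of -0.10 to 0.52 (limma adjusted p = 0.360), so the interval holds folds from 0.935 to 1.44. The exact two-sided permutation test, which moves arrays freely between genotypes, gave p = 0.0286, the smallest that 4 against 4 arrays allow and not adjusted for the number of probes. Exact permutation within the 4 like-numbered pairs, where no p can be below 0.125, gave p = 0.125.

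The SBPASE difference was positive in every pair of like-numbered samples, at 0.11, 0.17, 0.12 and 0.45 for numbers 1 to 4. Samples 1 and 2 alone gave 0.14 (limma adjusted p = 0.302) and samples 3 and 4 alone 0.28 (adjusted p = 0.157). Without WT samples 3 and 4 the value was 0.13 (adjusted p = 0.316), and without WT samples 1 and 2 it was 0.30 (adjusted p = 0.0672). The separation of the groups rested on the scaling, because with each array centred on its median the groups overlapped and the difference was 0.15 (adjusted p = 0.561). As deposited, the groups were apart as well (as for 22.5% of all probes), and the difference was 0.50 (adjusted p = 0.133), in a table where the median of all probes stood at 0.32, so SBPASE lay 0.17 above that median.

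PPDK is made in a chloroplast and a cytosolic form from the same gene, and the annotation does not say which transcript its probe measures. The normalised intensity of PPDK was 0.931, 0.941, 0.852 and 0.843 in tic40 samples 1 to 4, against 0.796, 0.750, 1.22 and 1.18 in WT samples 1 to 4. The tic40 arrays all lay in the gap between the 2 pairs of WT arrays. The means were 0.892 ± 0.0514 in tic40 and 0.988 ± 0.249 in WT (SD, n = 4 each), with a log2 difference of -0.11 and a 95% interval of -0.57 to 0.34 (limma adjusted p = 0.752, exact permutation p = 0.543, two-sided).

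For PPDK the sign of the difference turned with the WT pair. It was 0.23 and 0.33 for sample numbers 1 and 2, and -0.52 and -0.49 for numbers 3 and 4. Samples 1 and 2 alone gave 0.28 (limma adjusted p = 0.0833) and samples 3 and 4 alone -0.50 (adjusted p = 0.00918, in a fit that called 60.3% of all probes). Without WT samples 3 and 4 the difference was 0.21 (adjusted p = 0.160), and without WT samples 1 and 2 it was -0.43 (adjusted p = 0.0103, where 55.2% of probes were called). As deposited, the difference over all arrays was 0.17 (adjusted p = 0.828), or -0.16 relative to the median of all probes. No single direction for PPDK can be given from these arrays.

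AT5G58330 encodes the malate valve enzyme. Its normalised intensity was 2.67, 2.69, 2.35 and 2.27 in tic40 samples 1 to 4, against 4.11, 4.23, 2.83 and 3.13 in WT samples 1 to 4. All 4 tic40 arrays lay below all 4 WT arrays, as for 13.5% of all probes, and they did so as deposited and after median centring too (3.92% and 12.0% of all probes did). The means were 2.50 ± 0.219 in tic40 and 3.57 ± 0.702 in WT (SD, n = 4 each). The log2 difference was -0.50 with an SE of 0.18 and a 95% interval of -0.90 to -0.10, again not adjusted for the number of probes. It did not pass the test (limma adjusted p = 0.128), while the exact two-sided permutation test over free arrangements of the arrays gave the smallest p possible there, p = 0.0286. Within the like-numbered pairs exact permutation gave p = 0.125, the smallest that 4 pairs allow.

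For AT5G58330 the difference was negative in all 4 pairs of like-numbered samples, at -0.62, -0.65, -0.27 and -0.46. Samples 1 and 2 alone gave -0.64 (limma adjusted p = 0.0184) and samples 3 and 4 alone gave -0.36 (adjusted p = 0.0334), in fits that called 30.5% and 60.3% of all probes. Without WT samples 3 and 4 the difference was -0.74 (adjusted p = 0.00674, where 29.7% of probes were called), and without WT samples 1 and 2 it was -0.26 (adjusted p = 0.108). Under other scalings over all arrays it was -0.61 as deposited (adjusted p = 0.0730), where the median of all probes stood at 0.32, and -0.96 with median centring (adjusted p = 0.0966). The fits on subsets of arrays do not cover the spread between the WT pairs.

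**Figure D2:**
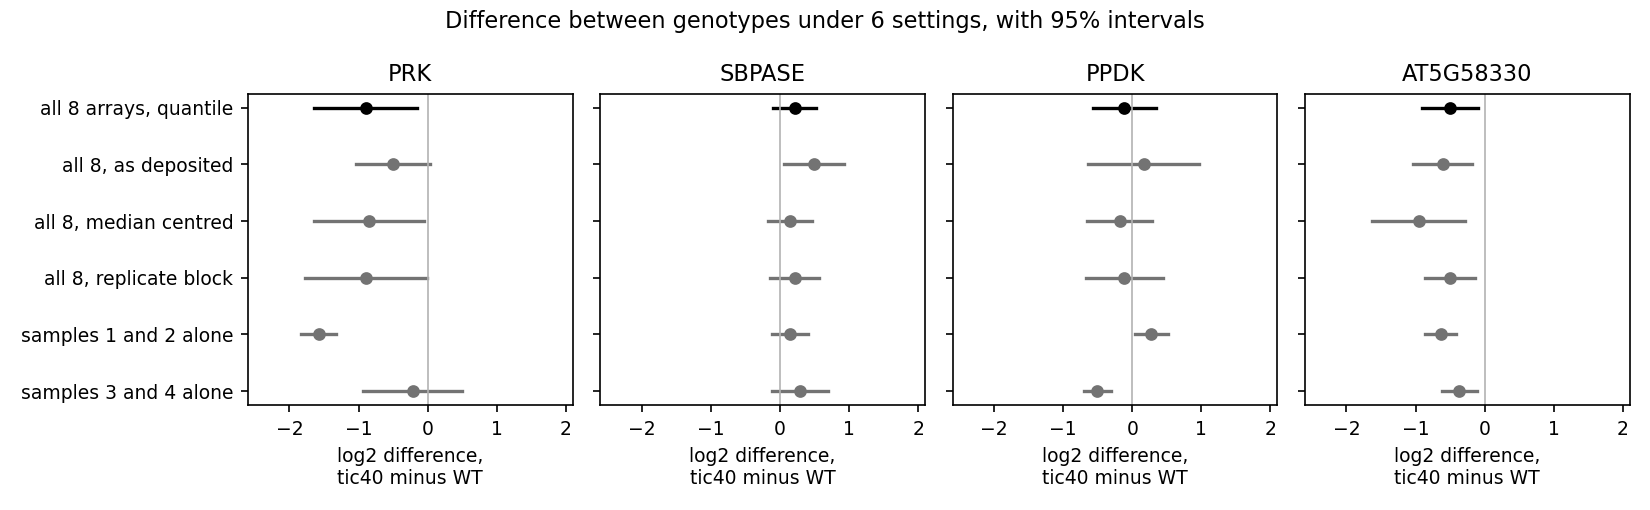
Log2 difference, tic40 minus WT, of each enzyme gene (points) with its unadjusted 95% interval from limma (lines), for all 8 arrays under 3 scalings and with a replicate block, and for samples 1 and 2 or samples 3 and 4 alone. The points of AT5G58330 lie left of 0 in every setting drawn, and those of PPDK lie at 0.28 in samples 1 and 2 and at -0.50 in samples 3 and 4.

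The spread within WT differed between the genes. Samples 3 and 4 minus samples 1 and 2 gave mean log2 differences of 0.27 for PRK, -0.03 for SBPASE, -0.14 for PPDK and -0.22 for AT5G58330 within tic40. Within WT the same differences were -1.10 for PRK, -0.18 for SBPASE, 0.64 for PPDK and -0.49 for AT5G58330. PRK and PPDK thus lay in opposite directions within WT, and neither difference had a counterpart of like size and sign within tic40. The differences within WT depended on the scaling. As deposited, SBPASE was 0.574 and 0.522 in WT samples 1 and 2 and 0.845 and 0.661 in WT samples 3 and 4, so its direction turned. PRK, PPDK and AT5G58330 kept theirs. WT sample 4 was also lower than WT sample 3 for both Calvin-Benson genes, at 0.344 and 0.533 for PRK and at 0.607 and 0.762 for SBPASE. The other genes did not share that gap, with 1.18 and 1.22 for PPDK and 3.13 and 2.83 for AT5G58330 in WT samples 4 and 3. The share of all probes with such a gap between these single arrays was not computed, so it does not set the Calvin-Benson genes apart. The SD on the log2 scale was smaller in tic40 than in WT for all 4 genes (0.16 in tic40 and 0.69 in WT for PRK), as it was for 79.8% of all tested probes. SBPASE was the steadiest of them in tic40, with a coefficient of variation of 2.08%, and only 1.54% of probes had a smaller tic40 SD.

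**Figure D3:**
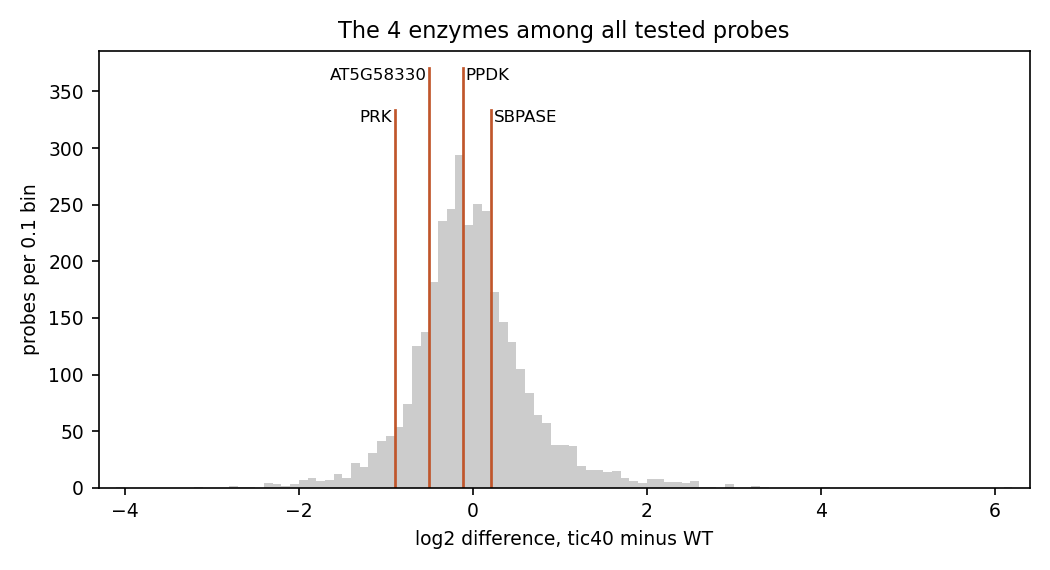
Number of tested probes (vertical axis, bins of 0.1) by log2 difference, tic40 minus WT (horizontal axis), with the 4 enzyme genes as vertical lines. PRK lies at -0.90 in the lower tail, where 6.90% of probes are lower, and the other genes lie between -0.50 and 0.21, inside the bulk.

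Ratios between the enzymes on the same array show whether their levels differed unequally, and a constant scaling of an array cannot change them. The size of such a ratio has no meaning of its own, only its difference between genotypes. All 6 pairs of the 4 genes were compared with exact two-sided permutation tests, in which the smallest possible p is 0.0286 before adjustment over the pairs. None passed after adjustment, nor did any within like-numbered pairs (exact permutation adjusted p of 0.375 to 0.5), where 4 pairs cannot reach 0.05. The groups did not overlap for SBPASE over AT5G58330 and for PRK over SBPASE, and they overlapped for the other 4 pairs. Both of the former hold SBPASE, whose own groups did not overlap, as for 21.8% of all single probes. The share over ratios of other probes was not computed, so this count does not set the enzymes apart.

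The log2 ratio of SBPASE over AT5G58330 was -1.63, -1.70, -1.51 and -1.45 in tic40 samples 1 to 4, against -2.36, -2.52, -1.89 and -2.36 in WT samples 1 to 4. All tic40 arrays lay above all WT arrays, by 0.71 on average (exact permutation p = 0.0286, adjusted p = 0.0857). This separation and its p were fixed in advance by the separate genes. SBPASE lay above every WT array and AT5G58330 below every WT array in tic40, after quantile normalization and as deposited. The ratio is therefore no further evidence beside them. By sample numbers, 1 and 2 gave a difference of 0.78 and 3 and 4 gave 0.65, and all arrays as deposited gave 1.11. Under both scalings and on both sets of sample numbers, the SBPASE signal over the AT5G58330 signal had the higher mean in tic40. It did not pass the adjusted test. PRK, the other Calvin-Benson gene measured, did not share this. Its ratio to AT5G58330 differed by -0.40 after quantile normalization and by 0.10 as deposited.

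The log2 ratio of PRK over SBPASE was -1.50, -1.43, -1.12 and -1.21 in tic40 samples 1 to 4, against 0.26, 0.26, -0.52 and -0.82 in WT samples 1 to 4. All tic40 arrays lay below all WT arrays, with a mean difference of -1.11 (exact permutation p = 0.0286, adjusted p = 0.0857). By sample numbers, 1 and 2 gave a difference of -1.72 and 3 and 4 gave -0.50 (-1.61 and -0.39 as deposited).

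For the pairs with overlap, the mean difference was -0.78 for PRK over PPDK, 0.39 for PPDK over AT5G58330 and 0.33 for SBPASE over PPDK (exact permutation adjusted p = 0.429 for each). For PRK over AT5G58330 it was -0.40 (exact permutation adjusted p = 0.429), and it was 0.10 as deposited (adjusted p = 0.629), so that its sign depended on the scaling. PPDK over AT5G58330 was even across the mutant, at -1.52, -1.52, -1.46 and -1.43 in tic40 samples 1 to 4, against -2.37, -2.50, -1.21 and -1.40 in WT samples 1 to 4.

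**Figure D4:**
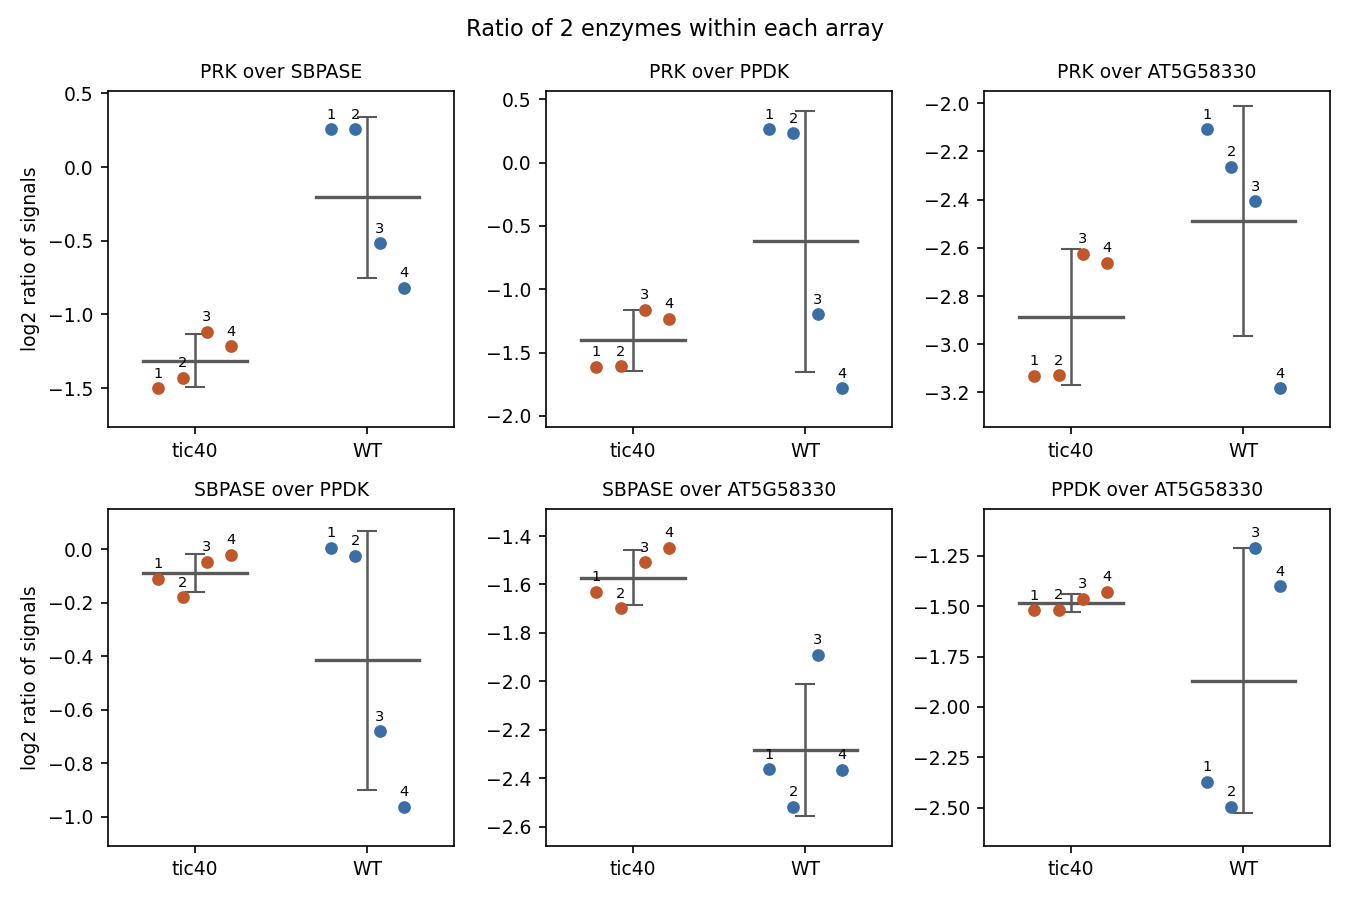
Log2 ratio of the signals of 2 enzyme genes on the same array (vertical axes, not starting at 0), tic40 left and WT right; points are arrays with their sample numbers, lines are means and bars are SD (n = 4 per genotype). The groups are apart for PRK over SBPASE and for SBPASE over AT5G58330, and in the other 4 panels WT arrays lie within or on both sides of the tic40 range.

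Of 25 listed genes of the Calvin-Benson cycle, 2 had a single-gene probe (PRK and SBPASE), and 0 were called in either direction. Of 31 listed genes of malate, pyruvate and phosphoenolpyruvate metabolism 2 were measured (PPDK and AT5G58330), with 0 called in either direction. Of all tested probes 7.69% were called, so 0 calls among so few genes do not set a list apart. The median log2 differences of these lists were -0.34 and -0.31, against -0.06 over all tested probes. Each is the midpoint of 2 genes, and in the Calvin-Benson list these lay on opposite sides of 0 (PRK -0.90, SBPASE 0.21). As deposited the medians were -0.0015 and -0.22, against 0.32 over all tested probes. They do not describe a pathway. None of the 13 listed photorespiration genes and none of the 19 listed genes of starch and sucrose metabolism had a single-gene probe. The thioredoxin system, through which PRK, SBPASE and NADP-malate dehydrogenase are activated in light, had 2 measured genes among 10 listed. Of these, 0 passed the test in either direction, against 7.69% of all tested probes (median of the 2 genes -0.19).

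The measured genes of the thioredoxin system were NTRC, the NADPH-dependent thioredoxin reductase C of chloroplasts, and AT2G04700. NTRC had 0.667, 0.677, 0.721 and 0.824 normalised intensity in tic40 samples 1 to 4, against 0.623, 0.531, 1.01 and 0.932 in WT samples 1 to 4. As for PPDK, the tic40 arrays of NTRC lay between the 2 WT pairs, and the log2 difference was -0.06 (95% interval -0.59 to 0.48, limma adjusted p = 0.902), 0.27 as deposited (adjusted p = 0.749). AT2G04700 had 0.459, 0.477, 0.619 and 0.633 in tic40 samples 1 to 4, against 0.484, 0.611, 0.815 and 0.853 in WT samples 1 to 4. Its groups overlapped, with a log2 difference of -0.32 (95% interval -0.83 to 0.20, limma adjusted p = 0.415), and samples 1 and 2 alone gave -0.22 (adjusted p = 0.324). Samples 3 and 4 alone gave -0.41 (limma adjusted p = 0.0155, in a fit that called 60.3% of all probes). The difference was -0.0085 without WT samples 3 and 4 (limma adjusted p = 0.978) and -0.62 without WT samples 1 and 2 (adjusted p = 0.0241, where 55.2% of probes were called). As deposited its difference was 0.04 (adjusted p = 0.974).

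**Figure D5:**
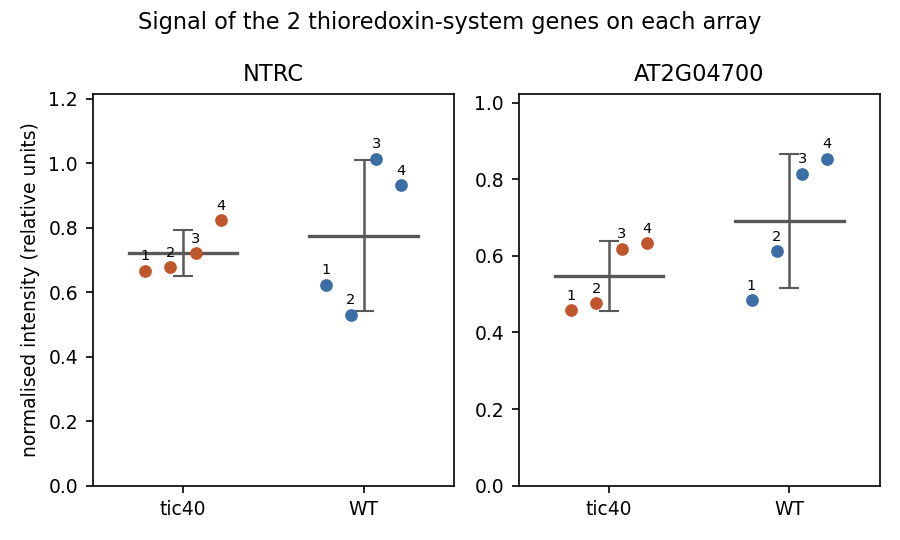
Normalised intensity (relative units, axis from 0) of NTRC and AT2G04700 on each array, tic40 left and WT right; points are arrays with their sample numbers, lines are means and bars are SD (n = 4 per genotype). For both genes WT samples 3 and 4 are the highest arrays, and the tic40 arrays overlap the WT range.

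The single-gene probes most like each enzyme over the 8 arrays were found by the Pearson correlation of log2 levels among 611 candidates above 0 on every array. The arrays fall into sets that share the genotype and the WT pairs, so these correlations describe the arrays and carry no p. The probes were picked on the same arrays, so their differences and calls follow in part from that choice. They are given as description and are no separate test. AT5G52530 (r = 0.966), AT1G28150 (0.95) and AT3G12930 (0.948) were most like PRK, and none of the 3 was called. AT4G19900 (0.941), AT5G51670 (0.921) and AT3G06870 (0.898) were most like SBPASE, and their own differences were larger, at 0.67, 1.47 and 2.15 (limma adjusted p = 0.171, 0.0547 and 0.0693). PPDK was closest to AT4G20690 (0.982), to PSB27 (0.976), whose product helps to assemble photosystem II, and to AT2G37510 (0.972). PSB27 had 4.65 ± 0.636 in tic40 and 6.94 ± 3.71 in WT (SD, n = 4 each). AT5G58330 was closest to AT1G01250 (0.970), AT4G31470 (0.955) and AT3G58610 (0.954). Of these 12 genes 1, AT4G31470, was called over all arrays after quantile normalization, against 7.69% of all tested probes, with 1.48 ± 0.0270 in tic40 and 2.48 ± 0.529 in WT (SD, n = 4 each; log2 difference -0.71, limma adjusted p = 0.0479). It did not pass with the replicate block (adjusted p = 0.0874), nor with any 1 of the 8 arrays left out (adjusted p of 0.0513 to 0.126). Which of the 12 were called changed with the scaling. As deposited limma called 3, against 10.8% of all probes, namely AT5G51670 (adjusted p = 0.0102), AT4G31470 (0.0316) and AT3G06870 (0.0411). With median centring it called 2, against 7.14% of all probes, namely AT5G51670 (adjusted p = 0.0396) and AT2G37510 (0.0441), and AT4G31470 did not pass (0.0536). After quantile normalization AT5G51670 passed without WT sample 1 (limma adjusted p = 0.0263) and AT3G06870 without WT sample 2 (0.0495).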

How the data were processed

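Total RNA of 4 tic40 and 4 WT samples was measured on single-colour arrays. The deposited intensity values are on a relative linear scale, never negative, and how the authors scanned, background-corrected and scaled them is not stated in the labels or the file. Quantile normalization (limma 3.58.1, R 4.3.3) was applied, since the median deposited intensity was 0.568 to 0.604 in tic40 and 0.354 to 0.564 in WT. The WT pairs differed here too. The medians were 0.361 and 0.354 in WT samples 1 and 2, with 260 and 277 probes at 0. They were 0.559 and 0.564 in WT samples 3 and 4, with 178 and 174 probes at 0. The tic40 arrays had 185 to 204 probes at 0. Values listed at 0 were then set to percentile 1 of the array's positive values, which changed the level of none of the genes described here. Their p-values did depend on it, since limma draws on the variance of all probes. With 1 common floor for all arrays, the limma adjusted p was 0.242 in place of 0.360 for SBPASE. For AT5G58330 it was 0.0960 in place of 0.128. Testing covered 3318 probes, without the 121 that read 0 on every array, with lmFit and eBayes, genotype being the only term, two-sided. Precision is limited by having 4 arrays per genotype. It is limited further in WT, whose arrays fell into pairs alike within and unlike between. The main fit and the exact tests over free arrangements treat each array as a separate unit.

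Gene names came from the platform annotation, and locus codes from the RefSeq TAIR10.1 gene table, which matched 690 of the 692 single-gene probes. No genome build is given for the probes, so no coordinates are printed, and probe or gene sequences are not used here. Same-numbered tic40 and WT samples deviated together (r = 0.306, 0.310, 0.261 and 0.254 for numbers 1 to 4, each above 0.1), which meets the rule for pairing. The fit with genotype alone and the exact tests of 4 against 4 arrays leave this pairing out. It enters as a replicate block in limma and as exact permutation within like-numbered pairs, the second chosen after seeing the data. The named genes are the 4 enzymes, the listed pathway genes with a single-gene probe and, for each enzyme, the 3 probes most like it. The genes and lists were chosen with earlier results of these data known. Alternatives covered the scaling, the value for zeros, filters, weights, the block and subsets of samples.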

Additional observations from a re-analysis of the deposited data

Results flagged for a closer look

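SBPASE in tic40 sample 1 had a normalised intensity of 0.863, set apart from the other tic40 samples by a gap of 0.846 of the group's range, more than Dixon's limit for 4 samples allows. The tic40 range of this gene is narrow, from 0.825 to 0.863. Of 12 groups checked (6 genes in each genotype) this was the only one beyond that limit, and chance puts about 1 in 20 groups there.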

How the results depend on the processing

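Over all 8 arrays and the scalings, zero values, filters and weights tried, PRK and AT5G58330 stayed lower in tic40 and SBPASE higher, and limma called none of the 4. The unadjusted exact permutation test put SBPASE (0.21, p = 0.0286) and AT5G58330 (-0.50, p = 0.0286) under 0.05 over free arrangements of the arrays. Exact permutation within like-numbered pairs gave p = 0.125 for both, the smallest possible with 4 pairs. With samples 1 and 2, and samples 3 and 4, averaged, limma gave an unadjusted p of 0.127 for PRK, 0.541 for SBPASE and 0.228 for AT5G58330. The limma adjusted p in that fit was 0.885 for PRK, 0.935 for SBPASE and 0.885 for AT5G58330. As deposited, the differences of PPDK (0.17), NTRC (0.27) and AT2G04700 (0.036) and the ratio of PRK over AT5G58330 (0.10) changed sign, where the median of all probes was 0.32, and array weights gave 0.040 for NTRC.

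With the number as a replicate block limma called 5 probes in place of 255, and the block changed no call of the 4 enzymes (adjusted p of 0.114 for AT5G58330 and 0.184 for PRK). Array weights gave 147 calls, samples 1 and 2 alone 1012, samples 3 and 4 alone 2000, and the WT samples 3 and 4 left out 985 and WT samples 1 and 2 left out 1833. With samples 1 and 2, and samples 3 and 4, averaged by genotype, the count of limma calls was 0 (184 at an unadjusted p under 0.05). The fits without WT samples 3 and 4 or without WT samples 1 and 2 were chosen after seeing the data.

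Samples 1 and 2 alone gave -1.58 for PRK, -0.64 for AT5G58330, 0.28 for PPDK and 0.22 for NTRC. Samples 3 and 4 alone gave -0.50 for PPDK, -0.36 for AT5G58330 and -0.41 for AT2G04700. Without WT samples 3 and 4 the values were -1.45 for PRK, -0.74 for AT5G58330, 0.21 for PPDK, 0.32 for NTRC and -0.0085 for AT2G04700, and without WT samples 1 and 2 they were -0.43 for PPDK, -0.43 for NTRC and -0.62 for AT2G04700. The cause was not tested. Leaving out 1 sample at a time gave 43 to 240 calls, -1.18 to -0.69 for PRK, 0.13 to 0.26 for SBPASE, -0.23 to 0.00014 for PPDK, -0.61 to -0.41 for AT5G58330 and -0.22 to 0.091 for NTRC. All 4 enzymes were above 0 on every array, but no background level was used here, so how far their signal lay above background is not known.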
